A study of Mus musculus with 14 samples.

Results

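Binding of Ring1b was mapped in basal keratinocytes of newborn mouse skin by chromatin immunoprecipitation and sequencing (ChIP-seq). The members described here are the peaks of Ring1b replicates 1 and 2 on chromosomes 1 to 19, which numbered 4403 and 3012 of the 25627 autosomal peaks in the 6 replicate lists read from the series. Peaks that shared at least 1 bp between the replicates were merged into 2473 regions, and these carry most of the values below. All 14 samples of the series came from epidermis of Krt14-RFP; Krt10-H2B-GFP animals at postnatal day 0, which carry a red reporter tied to a basal keratin and a green nuclear reporter tied to a suprabasal keratin. Cells positive for Sca1, high for the red reporter and without the green one were sorted from back skin. The groups used here were Ring1b (2 replicates, 6000000 cells per precipitation), H2AK119ub (2 replicates, 400000 cells) and H3K27me3 (2 replicates, 400000 cells), with input reads as the lists give them inside each peak. No mutant or treated animals were among the samples, and the labels do not say whether the replicates came from separate animals or litters.

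Ring1b is a catalytic subunit of Polycomb repressive complex 1 (PRC1), which places ubiquitin on histone H2A (the mark H2AK119ub) and compacts chromatin. Polycomb repressive complex 2 places H3K27me3, a mark that Cbx subunits of some PRC1 forms read, while other PRC1 forms reach unmethylated CpG islands through Kdm2b. In vertebrates the complexes are best known at CpG-rich promoters of developmental transcription factors, and in skin they have been studied for the control of lineage choice by epidermal progenitors.

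Start sites inside Ring1b regions of both replicates had more CpG in their promoter windows than start sites without Ring1b, and the windows of 3 of the tallest regions are shown beside a basal keratin promoter without Ring1b. The CpG content of whole regions was not measured. Each window runs from 250 bases before to 50 bases after a RefSeq start site of GRCm38.p6, the assembly behind the mm10 build of the peak lists, and is printed 5′ to 3′ on the strand of the gene with every CpG in capitals. Dmbx1, a homeobox gene of the embryonic midbrain, has its window at chr4:115939877-115940176 (minus strand) with 30 CpG and 66.7% G and C. The window of Hmx3, a homeobox gene of the inner ear, is chr7:131542713-131543012 (plus strand) with 39 CpG and 78.0% G and C. Isl2, a LIM homeobox gene of motor neurons, has its window at chr9:55540899-55541198 (plus strand) with 23 CpG and 67.3% G and C. The window of Krt14, the basal keratin behind the red reporter, is chr11:100205981-100206280 (minus strand) with 5 CpG and 48.3% G and C, no Ring1b peak of either replicate held its start site, and it was chosen after its values were seen. Tlx2, whose region tied with that of Dmbx1 for the highest mean rank of height, is named only.
Dmbx1: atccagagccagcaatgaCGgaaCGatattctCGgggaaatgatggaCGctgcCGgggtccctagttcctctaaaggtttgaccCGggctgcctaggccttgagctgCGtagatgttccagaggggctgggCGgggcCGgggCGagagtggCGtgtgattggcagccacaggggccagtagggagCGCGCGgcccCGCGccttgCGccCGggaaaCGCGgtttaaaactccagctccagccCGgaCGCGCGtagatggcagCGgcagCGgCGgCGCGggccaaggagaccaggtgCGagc
Hmx3: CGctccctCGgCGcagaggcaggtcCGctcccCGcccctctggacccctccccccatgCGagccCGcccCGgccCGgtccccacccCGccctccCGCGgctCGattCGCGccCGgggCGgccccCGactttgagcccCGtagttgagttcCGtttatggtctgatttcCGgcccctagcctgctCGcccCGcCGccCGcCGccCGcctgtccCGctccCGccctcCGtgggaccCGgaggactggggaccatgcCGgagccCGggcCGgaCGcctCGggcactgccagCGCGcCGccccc
Isl2: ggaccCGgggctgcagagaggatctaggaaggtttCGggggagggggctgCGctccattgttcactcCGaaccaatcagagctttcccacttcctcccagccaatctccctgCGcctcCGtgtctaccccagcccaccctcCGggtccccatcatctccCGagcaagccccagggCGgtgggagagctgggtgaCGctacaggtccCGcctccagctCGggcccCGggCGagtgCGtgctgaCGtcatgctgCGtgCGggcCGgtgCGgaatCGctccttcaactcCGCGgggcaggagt
Krt14: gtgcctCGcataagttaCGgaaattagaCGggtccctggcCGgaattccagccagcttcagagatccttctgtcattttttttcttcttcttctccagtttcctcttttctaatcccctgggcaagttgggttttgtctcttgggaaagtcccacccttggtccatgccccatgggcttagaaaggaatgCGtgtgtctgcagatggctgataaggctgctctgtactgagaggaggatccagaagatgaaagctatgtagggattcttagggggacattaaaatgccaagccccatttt

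Start sites inside Ring1b regions were several times as frequent in CpG-rich windows as in CpG-poor ones. Of 16457 protein-coding autosomal genes with a window, 1342 (8.15%) had a start site inside a region of both replicates. That share was 0.588% in windows with 0 to 4 CpG (27 of 4593, 95% Wilson interval 0.404 to 0.854), 3.57% with 5 to 9 CpG, 9.37% with 10 to 19, 11.7% with 20 to 29 and 18.7% with 30 or more (487 of 2611, 17.2 to 20.2). The median CpG count was 25 in the occupied windows, 26 in windows occupied in 1 replicate only and 11 in the 13967 windows without Ring1b. Where a gene had several windows, which was so for 2660 genes, an occupied one was taken. With the first listed window of each gene instead, an alternative chosen after the data were seen, the shares were 0.562%, 3.19%, 8.91%, 11.1% and 17.6%.

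**Figure D1:**
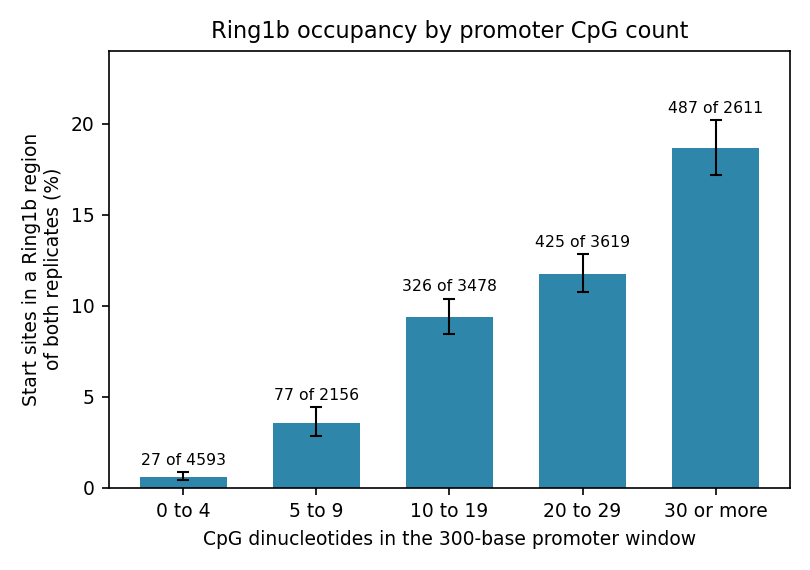
Share of protein-coding start sites that lay in a Ring1b region of both replicates (vertical axis, %) by the number of CpG in the 300-base promoter window (horizontal axis), with counts of genes above the bars and 95% Wilson intervals as error bars, which cover counting error only. The share is 0.588% in the bin with the fewest CpG and 18.7% in the bin with the most.

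Among occupied start sites, height did not go up with CpG count. The median of the mean peak height was 27.5 reads of coverage in windows with 0 to 4 CpG, 22.5 with 5 to 9, 20 with 10 to 19, 20.5 with 20 to 29 and 18.5 with 30 or more. With all regions ranked by height in 4 equal groups, from lowest to tallest, the median CpG count was 26, 27, 25 and 23. Short motifs were searched on both strands of the windows, with any overlap allowed. The GC box motif GGGCGG was in 72.1% of occupied windows and in 47.6% of all windows. The E2F-type motif TCCCGC was in 44.4% of occupied and 26.6% of all windows, and the E-box motif CACGTG in 10.5% and 7.98%. The TATA box motif TATAAA was in 7.90% of occupied and 13.5% of all windows. Within windows of at least 20 CpG the same shares were 84.0% of occupied and 81.5% of all windows for the GC box, 54.6% and 49.3% for the E2F-type motif, 12.2% and 11.9% for the E-box, and 5.59% and 3.96% for the TATA box. The differences over all windows were thus smaller among windows of at least 20 CpG, which were not matched in CpG count beyond that cut. For the TATA box the direction turned.

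Some microRNA genes lay under Ring1b, and the mature 5p sequences of the miR-196, miR-10 and miR-9 loci inside regions are printed below. Of 919 autosomal hairpins in the RefSeq table, 33 (3.59%) lay whole inside a Ring1b region of both replicates, in 29 regions. They included the 3 loci of miR-9, a microRNA of neural progenitors, and the miR-196 and miR-10 genes that sit between Hox genes. Hairpins on the opposite strand of Mir9-1 and Mir9-2 (Gm25641 and Gm51268) were counted as well. The hairpin share was below the 8.15% of protein-coding genes with a start site in such a region. The measures differ, since a hairpin had to lie whole inside. Sequences are from RefSeq (GRCm38.p6), 5′ to 3′, with the seed (bases 2 to 8) in capitals. The members of each family share a seed. The loci are Mir196a-1 (chr11:96265187-96265208, plus strand), Mir196a-2 (chr15:102973365-102973386, plus strand), Mir196b (chr6:52230129-52230150, minus strand), Mir10a (chr11:96317186-96317208, plus strand), Mir10b (chr2:74726074-74726096, plus strand), Mir9-1 (chr3:88215613-88215635, plus strand), Mir9-2 (chr13:83738821-83738843, plus strand) and Mir9-3 (chr7:79505279-79505301, plus strand).
miR-196a-5p: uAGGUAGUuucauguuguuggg
miR-196b-5p: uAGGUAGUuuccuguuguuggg
miR-10a-5p: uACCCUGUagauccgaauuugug
miR-10b-5p: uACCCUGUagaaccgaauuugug
miR-9-5p: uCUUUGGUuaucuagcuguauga

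The 3 miR-196 loci lay in the long Hox regions, at peak heights of 133 and 129 (Mir196a-1), 160 and 147 (Mir196a-2) and 151 and 140 (Mir196b) in replicates 1 and 2. Loci with the same seed could stand far apart. The region of Mir10b had heights of 117 and 104, and that of Mir10a, next to Hoxb4, had 14 and 11. Mir9-2 lay under heights of 105 and 97, against 26 and 27 at Mir9-1 and 33 and 26 at Mir9-3. Outside these families, Mir34b and Mir34c, which p53 induces, shared a region with heights of 22 and 14, and Mir193a had 28 and 24. The 3p sequences of Mir34b and Mir34c also share a seed. These values belong to the whole region, which often held other genes as well.

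The replicate 1 list held more peaks, and most peaks of the shorter replicate 2 list were found in it. Median peak lengths were 1362 bp and 1342 bp in replicates 1 and 2, no peak was under 500 bp, and median maximum heights were 18 and 17 reads. Peaks shared with the other replicate made up 56.7% of the replicate 1 list (2495 peaks) and 85.3% of the replicate 2 list (2570 peaks). By ChIP reads the shared peaks held 90.9% and 97.2% of all reads inside peaks. The 1908 and 442 peaks found in 1 replicate only were shorter and lower, with median lengths of 913 and 861 bp, against 2058 and 1520.5 bp for shared peaks. Their median heights were 15 and 13, against 22 and 18 for shared peaks. Their location was alike, since 78.5% and 75.3% of them were classed as promoter, against 78.4% and 76.6% of the shared peaks.

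Sharing followed height. In replicate 1, 25.1% of peaks up to a height of 14 were found in replicate 2, then 44.7% (15 to 19), 76.3% (20 to 29), 93.8% (30 to 59) and 99.6% (60 or more). In replicate 2 the same bands gave 68.9%, 90.1%, 97.5%, 99.3% and 99.1%. At a height of 60 or more, 1 peak of replicate 1 and 2 of replicate 2 were thus without a partner. These exceptions, named after their values were seen, were Micu2, a regulator of mitochondrial calcium uptake, with a height of 63 in replicate 1, and Rn45s and Cdk8 in replicate 2. At Rn45s, an annotated copy of the ribosomal RNA precursor, the height was 202, with 3876 ChIP reads (3096 plus strand, 780 minus strand) over 3301 input reads (2156 plus, 1145 minus). Its ratio was 1.17 and its deposited p 0.170. Ribosomal RNA genes are repeated in the genome, so reads there cannot be assigned to a copy. The peak at Cdk8, a Mediator kinase, had a height of 80, a ratio of 1.17 over 90 input reads and a deposited p of 0.457.

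ChIP reads exceeded input reads in all 2473 regions in both replicates, on a scale that is not adjusted for library size because no source used here states how many reads each library had. The peaks were called on this signal, so the excess is a description and carries no test. Reads and ratios of a region are those inside each replicate's own peaks. Median ChIP reads per region were 112 and 73 in replicates 1 and 2, over median input reads of 46 and 34. The median ratio of ChIP to input reads was 2.65 (interquartile range 2.13 to 3.46) in replicate 1 and 2.38 (1.89 to 3.14) in replicate 2, with a mean of 2.51 ± 0.197 (SD, n = 2). Across regions the log2 ratio of replicate 2 over replicate 1 had a median of -0.19, and 1821 regions (73.6%) had the higher ratio in replicate 1.

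Both strands contributed. Plus-strand and minus-strand ChIP reads each exceeded the input reads of their strand in 2465 regions of replicate 1 and in 2423 of replicate 2. The plus strand held a median of 51.3% and 50.8% of ChIP reads, against 50.0% of input reads in both replicates. In regions with at least 200 ChIP reads the plus share was 52.2% over 693 regions and 51.8% over 499 regions, against 50.1% and 50.3% for input. In each of the 10 tallest regions the plus share of ChIP reads was above these medians in both replicates. At Otx1, a homeobox gene of the forebrain, 4027 plus and 2576 minus ChIP reads of replicate 1 stood over 379 plus and 378 minus input reads. Replicate 2 had 3325 plus and 2171 minus ChIP reads there over 337 and 343 input reads.

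The input counts of the replicates may not be independent of each other. In 1442 cases a peak of one Ring1b replicate lay within a peak of the other, and in 0 of them did the inner peak hold more input reads than the outer one, including 168 cases in which the lengths were within 10%. The same held against both H2AK119ub lists and H3K27me3 replicate 2. Against H3K27me3 replicate 1 the inner peak held more input reads in 402 of 1576 cases for Ring1b replicate 1 and in 262 of 1381 for replicate 2. No case thus spoke for separate input libraries behind the Ring1b lists. Outside the 168 cases of near-equal length, the shorter inner peak would often hold fewer reads from a separate library too. If 1 library served both, the SD between replicate ratios covers the ChIP reads alone. The ratio rests on few input reads in part of the regions, with fewer than 20 in 293 regions of replicate 1 and 559 of replicate 2.

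Peak heights ran from 12 to 239.5 as means of the replicates and were ranked alike in both replicates. The mean height of a region had a median of 19.5 (interquartile range 16 to 28), 233 regions reached 60 and 128 reached 100. Spearman's rho between replicates, across regions, was 0.822 for height, 0.829 for length, 0.756 for ChIP reads per kb and 0.765 for the ratio, which shares its input. These describe 2 libraries and regions are not replicates. The tallest 10 regions are named by the mean rank of height over the replicates.

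**Figure D2:**
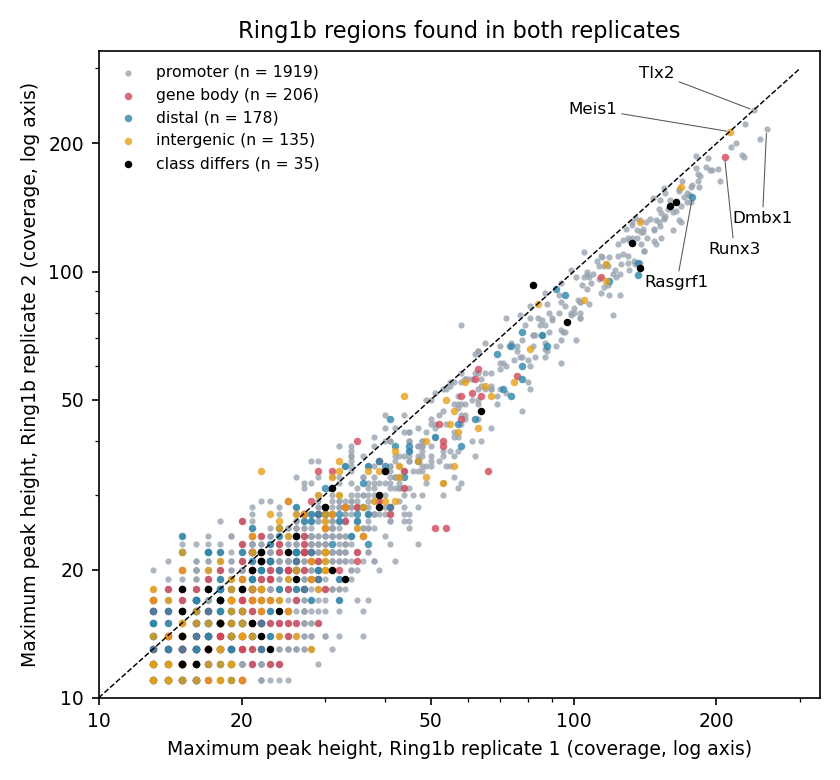
Maximum peak height of each of the 2473 Ring1b regions in replicate 1 (horizontal axis) and replicate 2 (vertical axis), in reads of coverage on log axes, coloured by location class, with the line of equal height dashed. Most points lie below the line, and the tallest regions of the promoter, gene body, distal and intergenic classes sit together at the upper end.

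The tallest regions lay at homeobox genes of the nervous system and at regulators of blood. Dmbx1 had heights of 255 and 216 in replicates 1 and 2 and 2120 and 1698 ChIP reads over 320 and 246 input reads. Tlx2, a homeobox gene of the enteric nervous system, had 240 and 239, and the region over Hmx2, Hmx3 and their neighbour Bub3, a spindle checkpoint gene, had 230 and 222. Isl2 had 247 and 205 and the highest ratio of these 10 regions, 10.8 ± 0.744 (SD, n = 2). Tal1, which blood stem cells require, had 226 and 188 and the lowest ratio of the 10, 6.25 ± 0.855. Slc32a1, the transporter that fills synaptic vesicles with GABA, had 220 and 200, and Otx1 had 229 and 186. A pair of the 10 were classed outside promoters, at Meis1 and Runx3. Both replicates of H2AK119ub and of H3K27me3 had a peak in each of the 10.

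Ranking by the ratio gave a set that shared only Isl2 with the tallest 10, and its first entry rested on few input reads. Gm21188 on chromosome 13 led with ratios of 27.5 and 25.5, from 55 and 51 ChIP reads over 2 and 2 input reads, at heights of only 24 and 25 and with neither mark. Gm36079, close to it on chromosome 13, had 12.4 and 9.86 over 7 and 7 input reads and also neither mark. The other 8 rested on 95 or more input reads. A distal region at Rasgrf1, a neuronal Ras exchange factor that is imprinted in mice, had 11.8 and 10.7 over 101 and 95 input reads. Isl2 followed with 11.3 and 10.3. The long noncoding RNA gene Dleu2 had 10.7 and 10.2, the organizer gene Gsc 10.9 and 9.85 and the RNA-binding protein gene Igf2bp1 10.9 and 9.14. Osr2, a zinc finger gene of the palate, shared a region with BC048602 at 9.87 and 10.1, and Sp9, a factor of limb ectoderm and forebrain, had 10.1 and 8.84.

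Region lengths had a median of 2269 bp (interquartile range 1414 to 3920) and ran up to 104229 bp. The 201 regions of at least 10000 bp were 8.13% of all regions, and they held 40.4% of the covered length and 60.9% and 63.7% of the ChIP reads in replicates 1 and 2. Longer regions were also taller, with Spearman's rho across regions of 0.564 and 0.567, while length and ratio were related less, at 0.222 and 0.216. How far the peak calling itself tied length to height was not tested.

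The 10 longest regions all lay at genes of development or of the cell cycle. The Hoxc region (Hoxc8 to Hoxc13, 104229 bp) was 1 peak in replicate 1 and 4 peaks in replicate 2, with heights of 160 and 147 and 15618 and 12524 ChIP reads. It also holds Hotair, a noncoding RNA gene. The Hoxa region (Hoxa3, Hoxa5 to Hoxa7, Hoxa9 to Hoxa11 and Hoxa13, 75216 bp) had the most ChIP reads, 15920 and 13230, and a height of 151 and 140. The Hoxd region (Evx2, Hoxd3 and Hoxd8 to Hoxd13, 73948 bp) was 1 peak in each replicate, at 142 and 131. On chromosome 11 a region over Hoxb5 to Hoxb9 (54150 bp) and one over Hoxb13 (40960 bp) had heights of 133 and 129, and 143 and 120. Hox genes give cells their position along the body axis.

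Outside the Hox clusters the longest regions were lower. The neighbours Zic1 and Zic4, which the developing cerebellum needs, shared 65691 bp at heights of 93 and 88, and Nr2f1, an orphan nuclear receptor of the cortex, had 47512 bp at 82 and 71. Hand2, a factor of heart and limb, had 42759 bp at 89 and 80. Cdkn2a and Cdkn2b, inhibitors of the cell cycle, shared 42305 bp at 94 and 94, and Pax3, a factor of neural crest and muscle, had 39462 bp at 108 and 97. Their ratios ran from 3.93 ± 0.520 at Cdkn2a and Cdkn2b to 5.68 ± 0.737 at Pax3 (SD, n = 2), below the ratios of the tallest 10.

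Most regions were classed as promoter by the authors' lists. In both replicates the class was promoter for 1919 regions (77.6%, 95% Wilson interval 75.9 to 79.2), gene body for 206 (8.33%), distal for 178 (7.20%) and intergenic for 135 (5.46%), and it differed between the replicates for 35. Height varied little between classes, with medians of 22 and 18 at promoters in replicates 1 and 2, 21 and 17 in gene bodies, 20.5 and 18 in distal regions and 22 and 19 in intergenic regions. Regions of at least 10000 bp were 174 of the promoter regions (9.07%), 4 of those in gene bodies (1.94%), 7 of the distal ones (3.93%) and 6 of the intergenic ones (4.44%). Some regions outside promoters were near a promoter region. Within 20000 bp of one lay 62 gene body regions (30.1%), 48 distal regions (26.97%) and 9 intergenic regions (6.67%).

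The class is not the same as holding a RefSeq start site. A protein-coding start site of the RefSeq windows lay inside 64.5% of promoter regions (1237), 2.91% of gene body regions (6), 7.30% of distal regions (13) and 7.41% of intergenic regions (10). The tallest gene body region was one of these. It lay in Runx3, a factor of T cells and sensory neurons (chr4:135148079-135158760), with heights of 208 and 186, and held the second of the 2 RefSeq start windows of Runx3 (chr4:135152295-135152594, plus strand). The first window (chr4:135120395-135120694) lay in no region of both replicates. The other leading gene body regions were the pseudogene Ppp4r1l-ps with heights of 114 and 97, 9330179D12Rik with 76 and 57, Aldh4a1, a mitochondrial enzyme of proline breakdown, with 63 and 59, and a further region in Pax3 with 62 and 56. The Aldh4a1 region had H2AK119ub and no H3K27me3 peak.

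Distal and intergenic regions reached the heights of promoters. Among distal regions Rasgrf1 led with heights of 178 and 150, at 24304 bp from the nearest end of the gene. Ostm1, a lysosomal gene of bone resorption, had 137 and 105, the region named for Hist1h2bk and Prss16 137 and 98, and Chd7, a chromatin remodeller, 96 and 88. Fcgr1, an antibody receptor, ranked just above Chd7 with a mean height of 107 ± 17.0 (SD, n = 2). The tallest intergenic region, with 214 and 213, overlapped the 3′ end of Meis1, a homeobox partner of Hox proteins. It ran over chr11:18867265-18883071, while the RefSeq span of Meis1 begins at 18880428 and its start window is chr11:19018920-19019219 on the minus strand. Other intergenic regions were nearest to Gm38821 (168 and 158, at 32929 bp), Hmga2, a chromatin architectural protein of growth (138 and 131, at 74929 bp), Eya1, a transcriptional coactivator of ear and kidney development (117 and 104, at 191286 bp), and Insig2, a regulator of sterol synthesis (117 and 95, at 122207 bp). Each of the 5 distal and 5 intergenic leaders had a peak of both marks in both replicates. Some genes held several regions, led by Skap1 and Trps1 with 5 each and Meis1 with 4, counted over the regions whose rows name the gene.

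Around occupied start sites Ring1b peaks reached further into the gene than upstream of it. Of the 1342 genes, the start site itself lay in a peak of replicate 1 for 1275 and of replicate 2 for 1108. From the start site the peak ran a median of 798 bp upstream and 1353 bp downstream in replicate 1, and 663 bp upstream and 1042 bp downstream in replicate 2. It reached further downstream at 67.7% and 64.6% of these genes. At 1000 bp upstream 42.7% and 37.1% of the genes were within a peak, against 61.0% and 51.6% at 1000 bp downstream. Neighbouring genes that share a start region were not set apart.

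**Figure D3:**
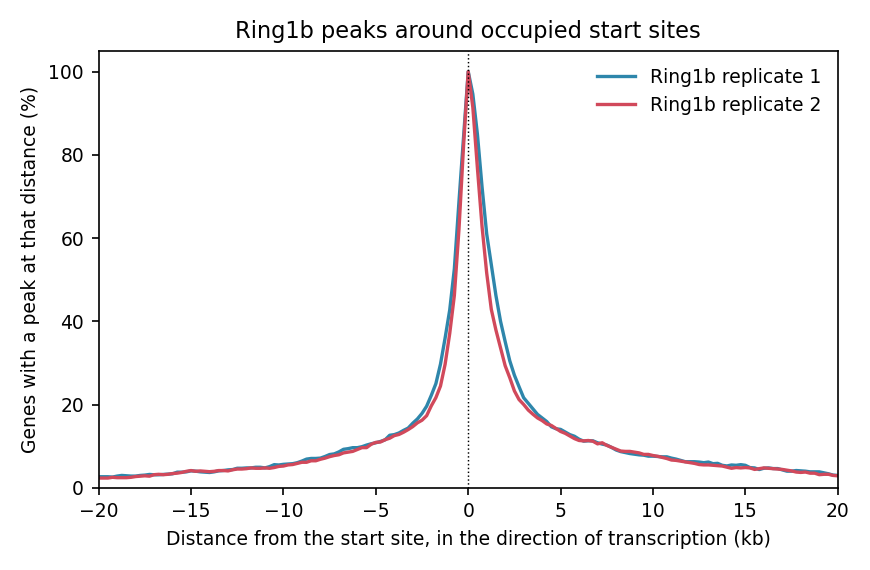
Percent of occupied protein-coding genes with a Ring1b peak at each distance from the start site (horizontal axis, kb, in the direction of transcription), for replicate 1 (1275 genes) and replicate 2 (1108 genes). Both curves are 100% at the start by construction and fall more slowly on the downstream side.

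By the genes that promoter rows name, 1961 of 20665 protein-coding autosomal genes (9.49%) had Ring1b in both replicates, and a further 1872 (9.06%) in 1 replicate only. Families of developmental transcription factors stood far above that background. Over 12 families together, 135 of 179 members had a Ring1b promoter peak in both replicates. By family these were 30 of 39 Hox genes, 24 of 41 forkhead genes, 12 of 18 Sox genes, 12 of 16 T-box genes, 4 of 5 Gata genes, 8 of 9 Pax genes, 11 of 12 LIM homeobox genes, 13 of 14 Nkx genes, 8 of 9 Dlx and Msx genes, 4 of 6 Iroquois genes, 5 of 6 genes of the family of Six2 and 4 of 4 Zic genes. Linked members often shared a region, so the 30 Hox genes lay in 8 regions and the 4 Zic genes in 2. Earlier results of these data were known when the families were drawn up, and no test is given for them.

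**Figure D4:**
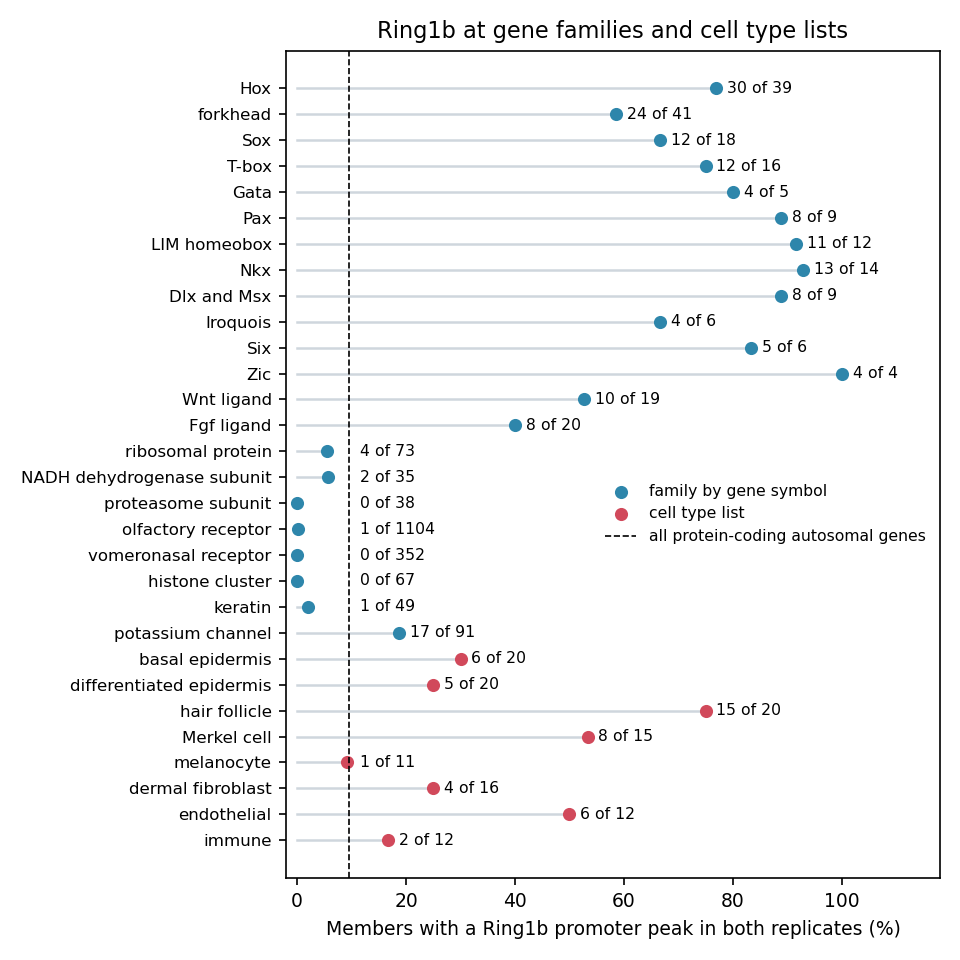
Percent of the members of each family or list that had a Ring1b promoter peak in both replicates (horizontal axis), with the counts beside the points. The dashed line is the share of all 20665 protein-coding autosomal genes, 9.49%, and the ribosomal protein, NADH dehydrogenase, proteasome, olfactory receptor, vomeronasal receptor, histone, keratin and melanocyte rows lie below it.

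Heights within these families were mostly above the upper quartile of all regions, a mean height of 28. Regions of the Gata family had a median mean height of 140, Hox regions 131.25, Zic regions 113.5, LIM homeobox regions 103.5 and Nkx regions 99. T-box regions had 85.75, forkhead regions 78.5, Pax regions 75, Dlx and Msx regions 59, Sox regions 56.5 and regions of the Six2 family 53.5. Iroquois regions stood lower at 24.75, with only Irx1 (50 and 44) above that quartile. Among the leaders were Tbr1, a factor of cortical neurons, with heights of 181 and 187, and Gata6, a factor of endoderm and heart, with 181 and 175. Foxl2, a factor of the ovary, had 164 and 139, Six2, a factor of nephron progenitors, 168 and 143, Nkx2-4, a relative of the thyroid and lung factor Nkx2-1, 190 and 176, and Lhx8, a factor of forebrain cholinergic neurons, 203 and 163. Zic2 and Zic5 shared a region at 153 and 120, and Dlx1 and Dlx2, factors of interneurons, one at 133 and 120. Pax5, a factor of B cells, led its family with 139 and 116.

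Members without a Ring1b promoter peak in both replicates were a minority in the factor families and did not all lack it alike. Hoxa2, Hoxb3 and Hoxc5 had a promoter peak in replicate 1 only, at heights of 13, 14 and 13, and Hoxb2 in replicate 2 only, at 14. Gata3, a factor of epidermis and hair follicles, had one in replicate 1 only, at a height of 35 with 132 ChIP reads over 66 input reads. No promoter row of either replicate named Hoxa4, Hoxb1, Hoxc4 or Hoxc6. The Hoxc region of both replicates nevertheless overlapped Hoxc6, whose RefSeq span begins at 102998226, while the region ends at 102999128. No promoter row named 15 forkhead genes either, among them Foxm1, Foxn1 and Foxj1, nor Sox8, Sox10 and Sox15.

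Secreted ligands were covered in part and at lower heights. Of the Wnt ligands 10 of 19 had Ring1b in both replicates, at a median mean height of 21, led by Wnt10a, which tooth and hair development require, with heights of 64 and 47. Wnt11 had 33 and 21, Wnt5a 31 and 21 and Wnt1 32 and 19. Of the Fgf ligands 8 of 20 did, at a median of 32, led by Fgf9 (42 and 43), Fgf5, which ends hair growth (44 and 37), Fgf10 (44 and 31) and Fgf8 (36 and 28). Potassium channel genes had 17 of 91, at a median of 17, with Kcng3 the tallest at 38 and 41.

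Few genes of families that serve every cell, or of receptors of the nose, had Ring1b in both replicates. Ring1b lay at 4 of 73 ribosomal protein genes, among them Rpl12 with heights of 20 and 23, Rps15 with 26 and 17 and Rpl10a with 18 and 18. It lay at 2 of 35 NADH dehydrogenase subunit genes (Ndufs1, 15 and 24, and Ndufa13, 17 and 13). These shares of 5.48% and 5.71% rest on few genes and stand beside a background of 9.49%, and a further 8 ribosomal protein and 5 NADH dehydrogenase genes had a peak in 1 replicate only. It lay at 0 of 38 proteasome subunit genes and 0 of 67 histone genes. Of 1104 olfactory receptor genes 1 had it (Olfr94, 17 and 13), and of 352 vomeronasal receptor genes 0. Ribosomal protein genes have many pseudogene copies, and olfactory receptor and histone genes are multigene families. Whether reads there were split between copies was not tested. Most olfactory receptor windows were CpG-poor, such as that of Olfr94 with 3 CpG. Over all genes, 0.588% of windows with 0 to 4 CpG were occupied. How far these family shares follow CpG count was not tested.

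Keratin genes carried little Ring1b. Of 49 keratin genes 1 (2.04%) had a promoter peak in both replicates, beside 9.49% of all protein-coding autosomal genes. This was Krt8, a keratin of simple epithelia and Merkel cells, with heights of 18 and 19 and ratios of 1.80 and 3.38, and 0 had one in a single replicate. Most keratin windows were CpG-poor, such as those of Krt5 (6 CpG), Krt10 (2) and Krt8 (6), against 17 at Krt18. Over all genes, the share of occupied start sites was 0.588% with 0 to 4 CpG and 3.57% with 5 to 9. The background of 9.49% was not matched for CpG count, and how far the keratin share follows CpG count was not tested. Peaks say nothing of expression, so the sorted identity of the cells could not be checked by marker levels. Among basal epidermal genes, Krt5, Krt14, Krt15, Trp63, Itga6 and Col17a1 were 6 of 11 that no Ring1b promoter row named, and 3 further genes had a peak in 1 replicate. The 6 of 20 with Ring1b in both replicates were Jag2, a Notch ligand (38 and 27), Tfap2c, a keratinocyte transcription factor (25 and 21), Bnc1, a zinc finger factor of basal cells (20 and 17), Notch1 (22 and 13), Klf5 and Sox6. This share of 30%, like the 25% of the differentiated list below, was above the background of 9.49%. The 6 genes had a median mean height of 18, below the 19.5 of all regions. Of 20 genes of differentiated epidermis 5 had it, led by Prdm1, a repressor, at 53 and 32, and followed by Lor, a cornified envelope protein, at 27 and 17, Klf4, a barrier factor, at 18 and 18 and Grhl1 at 13 and 13. The fifth was Ovol1, while Krt1, Krt10, Ivl and Flg were among the 15 without a promoter peak.

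Among lists of other skin cell types, shares were larger for hair follicle, Merkel cell and endothelial genes than for both epidermal lists, while those of dermal fibroblast, melanocyte and immune genes were not. These differences between lists were not tested, nor was how far they follow the transcription factors on each list. Hoxc13, Lhx2, Sox9, Msx1, Sox2, Sox17, Tbx15 and Pax3 also belong to the families above, so their regions are counted there too. Among Merkel cell genes that are not transcription factors, those without a promoter peak included Krt18, Krt20, Chga, Sst and Rab3c. Those with one in both replicates included Krt8 and Cck. Of 20 hair follicle genes 15 had Ring1b, at a median mean height of 44. They were led by Hoxc13, a factor of hair keratins, within the Hoxc region, and by Lhx2, a factor of follicle stem cells, at 148 and 126. Sox9, which follicle stem cells require, had 130 and 109 within only 3413 bp, and Msx1 had 105 and 111. Of 15 autosomal Merkel cell genes 8 had it, led by Gfi1 at 192 and 185, Sox2 at 173 and 146, Isl1 at a mean of 123 ± 5.66 (SD, n = 2) and Insm1 at 69 and 49, which are transcription factors of this touch receptor cell. Of 12 endothelial genes 6 had it, led by the vessel factors Sox17 (93 and 80) and Prox1 (67 and 58), the receptor gene Flt1 (61 and 56) and Erg (51 and 43). Dermal fibroblast genes had 4 of 16, led by Tbx15 (a mean of 125 ± 8.49, SD, n = 2), Pdgfra (71 and 61), Prrx1 (67 and 43) and Twist1 (53 and 53). Melanocyte genes had 1 of 11 (Pax3), and immune genes 2 of 12 (Ikzf1, 37 and 25, and H2-Ab1, 32 and 18). Beside the background of 9.49%, the shares were 75% (hair follicle), 53.3% (Merkel cell), 50% (endothelial), 25% (dermal fibroblast), 16.7% (immune) and 9.09% (melanocyte). The melanocyte share was thus close to the background.

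The marks of both Polycomb complexes were present at part of the regions. A peak of both H2AK119ub replicates met 1170 regions (47.3%), a peak of both H3K27me3 replicates met 1277 (51.6%), and 715 (28.9%) met no peak of either mark in any replicate. The shares went up with the length of the Ring1b region. With regions ranked by length in 4 equal groups, from shortest to longest, H2AK119ub was at 17.3%, 34.0%, 52.3% and 85.8% of regions and H3K27me3 at 17.8%, 38.7%, 62.0% and 88.2%. Regions with neither mark made up 60.6%, 37.9%, 15.4% and 1.78% of these groups. A longer region has more bases in which to meet a peak. With at least 50% of the region covered by the mark in both replicates, the longest group exceeded the shortest by 49.0 percentage points for H2AK119ub, against 68.5 with any overlap, and by 68.0 against 70.4 for H3K27me3.

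Height gave the same order, with a smaller difference between the top and lowest groups. With regions ranked by height in 4 equal groups, from lowest to tallest, H2AK119ub was at 27.6%, 37.9%, 46.4% and 77.3% of regions and H3K27me3 at 35.9%, 42.7%, 47.4% and 80.6%. Regions were also split by both measures, and among the shorter ones the shares differed little between the taller and the lower regions. Among regions up to the median length H2AK119ub was at 26.6% of the 653 taller and 24.5% of the 583 lower regions, and H3K27me3 at 27.4% and 29.0%. Among longer regions H2AK119ub was at 84.6% of the 637 taller and 52.3% of the 600 lower regions, and H3K27me3 at 87.6% and 61.8%. Median lengths among these longer regions were 6225 bp for the taller and 3078 bp for the lower regions, so length was not held equal there. Median heights were 42.5 and 18 for the taller and lower of the longer regions, but 20.5 and 14.5 for those of the shorter ones. The height contrast was thus smaller among the shorter regions, so these splits cannot tell whether height matters less there.

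**Figure D5:**
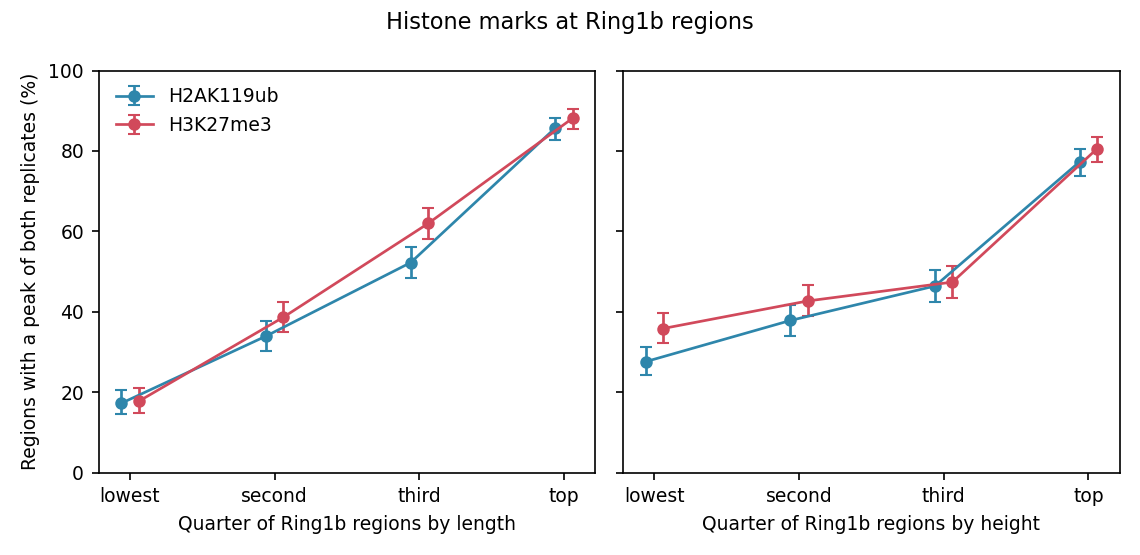
Percent of Ring1b regions that met a peak of both replicates of H2AK119ub or H3K27me3 (vertical axis), in 4 equal groups ranked by region length (left) and by mean peak height (right), with 95% Wilson intervals that cover counting error only. Both marks go up in every step, to 85.8% and 88.2% in the longest group and 77.3% and 80.6% in the tallest.

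Against the histone marks, Ring1b peaks were shorter and more often at promoters. Median peak length was 1362 and 1342 bp in Ring1b replicates 1 and 2, against 1615 and 2674 bp for H2AK119ub and 4611 and 4273.5 bp for H3K27me3. The difference of means was -792.5 bp from H2AK119ub and -3090 bp from H3K27me3. The promoter class held 78.5% and 76.4% of Ring1b peaks, against 49.6% and 47.1% of H2AK119ub peaks and 46.2% and 61.9% of H3K27me3 peaks, which was 29.1 and 23.4 percentage points more. No Ring1b list overlapped the lists of a mark on either measure, and each of the 4 comparisons had an exact two-sided permutation p of 0.333 (Benjamini-Hochberg adjusted p = 0.333 over 4), the smallest that 2 against 2 lists allow. None can therefore pass 0.05. Ring1b was precipitated from 6000000 cells and both marks from 400000, so antibody and cell number cannot be told apart here. Settings of the peak caller for each antibody are not given in the labels. No H3K27me3 peak was under 2003 bp in replicate 1 or 2006 bp in replicate 2, while Ring1b and H2AK119ub peaks went down to 500 bp. These H3K27me3 minima lie above both Ring1b medians. The sign of the length difference from H3K27me3 was thus fixed, and its permutation p carries no information. The length difference from H2AK119ub was -263 bp without H2AK119ub replicate 2 and -1322 bp without H2AK119ub replicate 1. Without H3K27me3 replicate 1 the promoter difference from H3K27me3 was 15.5 percentage points. When the lists were cut to a deposited p up to 0.001, the length difference from H3K27me3 was -1917 bp and the promoter difference from H2AK119ub was 14.97 percentage points. In those peaks the length difference from H2AK119ub was -1197 bp with an exact permutation p of 0.667, so these lists were no longer separated.

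Regions in which the replicates disagreed most were low ones. The 5 largest differences in log2 ratio had 3 to 33 input reads and mean heights of 14.5 to 21.5. At Cpe, a carboxypeptidase of hormone processing, the ratios were 7.17 and 2.14 from 43 and 30 ChIP reads over 6 and 14 input reads. At the region shared by Mrpl48 and Rab6a they were 2.39 and 7.33 over 31 and 3 input reads, and at Rarg, a retinoic acid receptor, 2.36 and 7.00 over 33 and 6. A region whose nearest gene was Atp11b had 6.50 and 2.17, and Tm6sf1 had 5.88 and 2.04. In 3 of the 5 the higher ratio was in replicate 1 and in 2 in replicate 2.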

How the data were processed

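ChIP-seq peak lists of Ring1b, H2AK119ub and H3K27me3 were read, 1 per replicate (2 replicates each). Per the file headers, each deposited row gives chromosome, start, end, a maximum height (a coverage signal), plus- and minus-strand read counts for ChIP and for input, a p-value, a location class and gene names. The authors' counts were whole numbers, and no source used here states a normalization of the deposited height, counts or p-value. MACS2 2.1.0, SAMtools 0.1.19, Bowtie2 2.2.3, Bowtie 1.1.1, Trim Galore 0.4.1 and the build mm10 are named in the processing notes of the submitters; which of them made the lists is not stated there. Peaks were called per replicate. No source used here says whether coordinates count from 0 or 1, so they are printed as listed and read as closed intervals. H3K27ac, H3K4me1, H3K4me3 and separate input samples were not analysed here.

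Ring1b peaks on chromosomes 1 to 19 that shared at least 1 bp between replicates were merged, and regions with a peak of both were kept. A region's class is that of its tallest peak in each replicate. The ratio is ChIP over input reads, summed over strands, with no scaling, because total reads per library are not stated. Reads in peaks numbered 1078097 and 775119 for Ring1b ChIP in replicates 1 and 2, over 275950 and 207037 input reads, and are not library depths. Intervals on shares are Wilson intervals at 95% and reflect counting error alone. Of 4608 gene names in the Ring1b lists, 4492 matched a current RefSeq symbol (GRCm38.p6), 106 a synonym and 10 none. The RefSeq table gives gene spans, so exons, introns and UTRs were not told apart. Antibodies were compared by exact permutation over lists. Code was tested on simulated intervals with known overlaps (Python 3.11.15, pandas 2.3.3, SciPy 1.17.1).

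Named genes are those of the 10 shared regions highest by mean rank of height, of ratio and by length, the 5 highest by height rank in each class other than promoter, up to 4 leading members of each family or list, the 5 regions with the largest difference in log2 ratio between replicates, and, for sequences, the 3 tallest promoter regions with a window; a few of these genes are not reported here. Members beyond these (one-replicate peaks, genes without peaks, microRNAs) were named after their values were seen. Members, families and lists were chosen with earlier results of these data known. Replicates that the labels do not tie to separate animals measure only the spread between these samples.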

Additional observations from a re-analysis of the deposited data

Results flagged for a closer look

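Chromosome X lies outside the chromosomes described above, and Ring1b peaks were present there, 49 in replicate 1 and 46 in replicate 2. The median ratio of ChIP to input reads was 2.82 and 3.10, and 33 regions were found in both replicates. The tallest lay at Fndc3c1, with heights of 140 and 103.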

How the results depend on the processing

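Direction was kept in every alternative run here. For the length difference from H3K27me3 with all peaks, the shortest H3K27me3 peaks fixed that direction. Restricting the lists to a deposited p of at most 0.001 left 1021 shared regions (2473 with all peaks), a median length of 4102 bp (2269), a median ratio of 3.40 (2.51) and 830 genes with a promoter peak in both replicates (1961). The union list gave 3824 such genes. Leaving out 1 replicate gave medians of 1515 to 2082 bp for length and 2295 to 3499 genes. The lesser ratio of the strands had a median of 2.17. For the marks, a peak in either replicate gave differences between the top and lowest of the 4 groups of 65.3 percentage points (H2AK119ub by length), 40.7 (H2AK119ub by height), 65.7 (H3K27me3 by length) and 39.9 (H3K27me3 by height). With at least 50% of the region covered, H2AK119ub gave 49.0 by length and 41.6 by height. The cause of these changes was not tested, other than that fewer peaks pass a stricter p. Of the 179 transcription factor genes, 66.5% to 82.7% had Ring1b under the same settings (75.4% as reported), an alternative added after the data were seen.

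Replicate numbers are shared between antibodies and nothing in the labels ties samples of the same number. With the replicate number as a block, the differences were -792.5 bp and -3090 bp in length and 29.1 and 23.4 percentage points in promoter share, each with an exact p of 0.5, the smallest that 2 pairs allow. Whether same-numbered samples deviate together cannot be judged from 2 lists per antibody. Depth per library is not known; 34.7% of Ring1b peaks in replicate 1 and 20.7% in replicate 2 had a deposited p above 0.05.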
